A study of Mus musculus with 4 samples.

Results

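The genes described here encode the proteasome, the protease of the cytosol and nucleus that degrades proteins tagged with ubiquitin, together with its activators and assembly factors. Members are the gene columns of the deposited expression table whose symbol starts with Psma to Psmg followed by a digit, which gave 50 genes of 17187. They were sorted by role. The 20S core had 7 genes of the alpha ring and 7 constitutive and 3 inducible genes of the beta ring. The 19S regulatory particle had 6 ATPases and 11 other subunits. There were 5 activators and inhibitors, 7 assembly factors and 4 other genes that match by symbol but were given none of these roles. Of the 50, 49 passed the filter for testing, a mean of at least 10 normalised reads over the libraries, and all 46 genes of known proteasome role were among them; the pseudogene Psmb6-ps2 did not pass.

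The RNA came from group 2 innate lymphoid cells (ILC2s, lymphocytes that make type 2 cytokines without an antigen receptor) sorted from lungs of wild-type BALB/c mice and kept in culture for 18 hours. One group of 2 libraries received an isotype control antibody and the other group of 2 received an antibody against CD226, a costimulatory receptor, at 5 µg/mL; the wording of the dose may also cover the control antibody. The sample labels describe treatment in culture, the design text speaks of treated mice and the table itself calls the controls PBS; the sample labels were followed. No age, sex or pooling of mice is given, and it is not stated if replicate libraries are from different mice or cultures, and the p-values therefore reflect only how these libraries vary, which may be technical.

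The estimated depth was between 12433729 and 17847306 reads per library. The sorted cells carried ILC2 transcripts: the 13 markers of the ILC2 list, among them Gata3, Il1rl1 and Il5, summed to between 196465 and 215081 normalised reads in every library. The T cell genes Cd3e and Cd3g were present at 51.5 to 79.4 and at 215 to 325, while Cd3d (1.10 to 5.53) and Trac (2.06 to 4.64), the other T cell markers in the table, were near the value of 3 reads. Of 14 macrophage markers 9 were in the table, and they summed to 287 and 274 in the isotype libraries, to 577 in replicate 1 of anti-CD226 and to 1913 in its replicate 2. Mpeg1 was at 0 in both isotype libraries, and Csf1r was at 1.03 to 2.62 in all 4. The 4 mast cell and basophil markers in the table summed to 135 and 162 under isotype and to 66.9 and 97.0 under anti-CD226. The part of either marker list in the proteasome values was not tested. In bulk RNA, fewer cells of a type and less RNA per cell cannot be told apart.

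As background, the 20S core is a barrel of stacked rings. Alpha subunits form the outer rings and gate the entry, and beta subunits form the inner rings, where Psmb5, Psmb6 and Psmb7 carry the protease sites. In lymphocytes, and in other cells exposed to interferon, Psmb8, Psmb9 and Psmb10 can take those places and form the immunoproteasome, which changes the peptides supplied to MHC class I. The 19S particle binds ubiquitin, unfolds the substrate with a ring of ATPases and feeds it into the core.

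Proteasome genes were lower in anti-CD226 replicate 2 than in the other libraries, and no member differed between the groups by the test. Of the 49 members tested, 43 were lower and 6 higher on average in anti-CD226 libraries, with a median log2 fold change of -0.15 on the log2(value + 1) scale. Over all 13010 genes tested the median was 0.01 and 48.9% were lower. No member passed limma's adjusted p of 0.05 (0 of 49; every adjusted p was at least 0.98), and 0 members were past an unadjusted p of 0.05, against 2.37% of all genes tested. The median hides a split between the treated libraries. Against the isotype mean, the median member stood 0.06 higher in anti-CD226 replicate 1 and at -0.37 in anti-CD226 replicate 2. Anti-CD226 replicate 2 was the lowest library for 44 of 49 members, against 37.2% of all genes tested. The groups overlapped for 45 members. They were separate and lower for 3, against 13.0% of all genes, and separate and higher for 1, against 13.8%. Together the 50 genes gave 0.973% and 1.04% of all signal under isotype, 1.03% in replicate 1 of anti-CD226 and 0.812% in its replicate 2.

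The libraries did not pair up by treatment for these genes. The typical gap between isotype replicate 2 and anti-CD226 replicate 1, as the median absolute log2 difference over the 49 members, was 0.05. Between the 2 isotype libraries it was 0.13, and between the 2 anti-CD226 libraries 0.41. For all genes tested the same gaps were 0.14, 0.19 and 0.33.

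**Figure D1:**
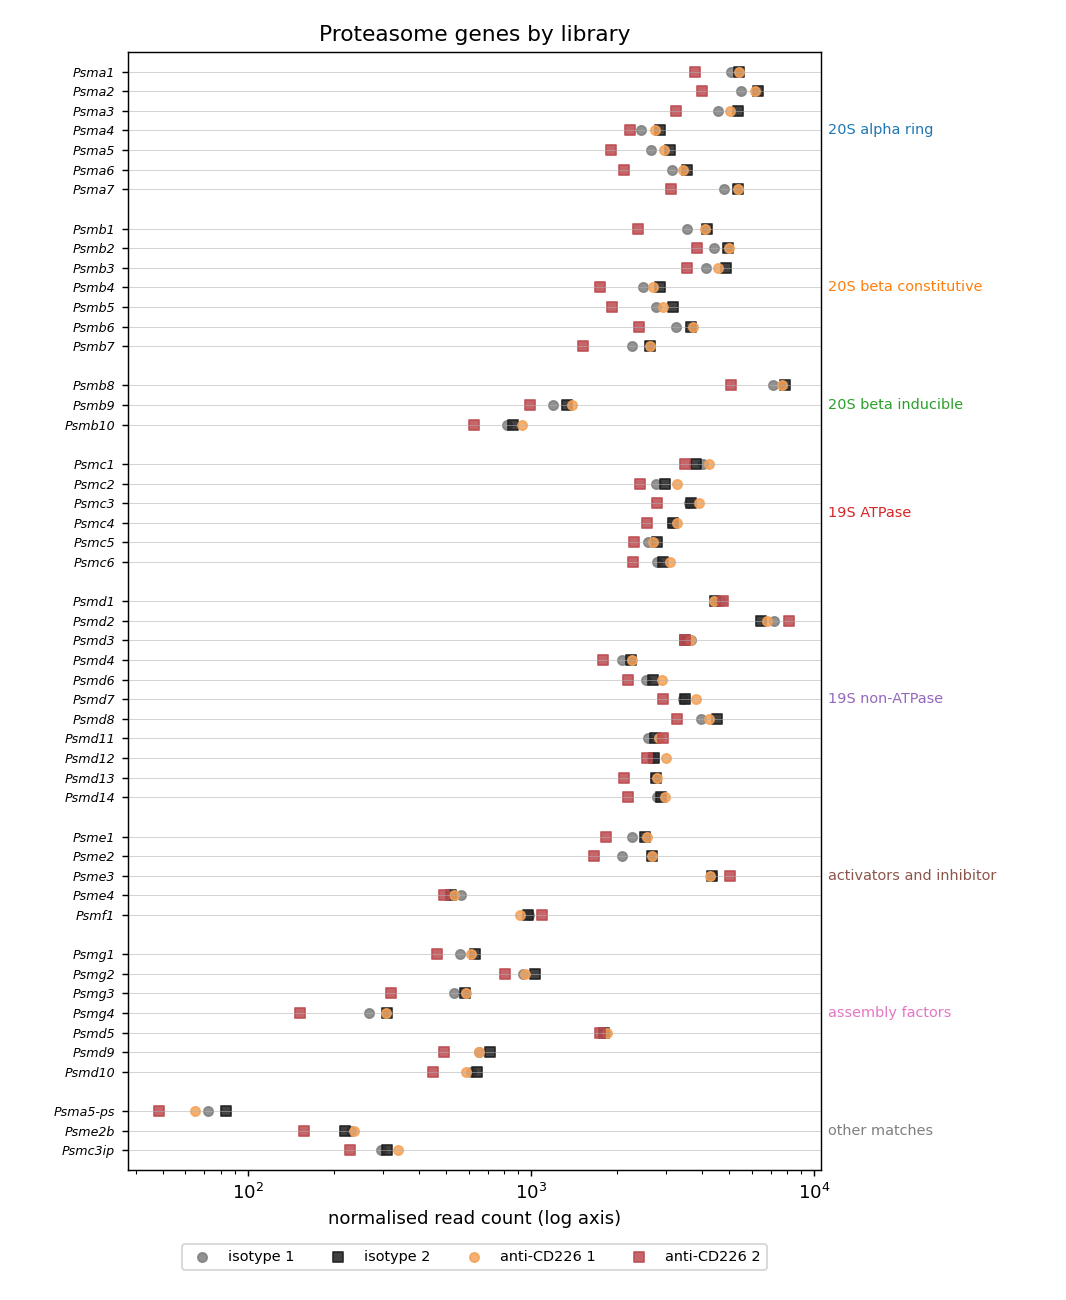
Normalised read counts of the 49 tested proteasome genes (log axis), 1 row per gene grouped by role and 1 symbol per library. The symbols of anti-CD226 replicate 2 lie left of the others for 44 genes, and the other libraries lie close together.

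The 7 alpha ring genes were all lowest in anti-CD226 replicate 2 and all highest in isotype replicate 2. Their log2 fold changes ran from -0.31 to -0.09, with a median of -0.27. Psma3 stood at 4571 and 5387 under isotype and at 5050 and 3242 under anti-CD226. Psma6 stood at 3135 and 3557 against 3443 and 2124. Psma7, the gene of this ring with the largest drop in anti-CD226 replicate 2, stood at 4801 and 5378 against 5374 and 3119. In each of these 3 genes anti-CD226 replicate 1 fell between the isotype libraries, so the groups overlapped. The log2 fold changes were -0.29 for Psma3, -0.30 for Psma6 and -0.31 for Psma7, with standard errors of 0.23, 0.24 and 0.25 (limma, adjusted p = 0.98 for each). Against the isotype mean, the 7 genes were at -0.70 to -0.23 in anti-CD226 replicate 2 and at 0.03 to 0.08 in replicate 1. Psma4 was the one that dropped least, from 2438 and 2842 in isotype to 2742 and 2238 under anti-CD226. Since one copy of each alpha subunit goes into each ring, their transcripts can be set side by side per length. Per kilobase of coding sequence the mean over libraries ran from 3276 normalised reads for Psma4 to 7829 for Psma2. Per kilobase of transcript the order was different, from 1603 for Psma3 and 1888 for Psma2 to 5107 for Psma7, so the order of levels within the ring depends on the length used.

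The constitutive beta genes followed the same order of libraries. All 7 were lowest in anti-CD226 replicate 2, with log2 fold changes from -0.32 to -0.10 and a median of -0.29. Psmb5, which carries the chymotrypsin-like site, stood at 2759 and 3160 under isotype and at 2915 and 1928 under anti-CD226, with -0.32 as log2 fold change (standard error 0.22). Psmb6, which carries the caspase-like site, stood at 3235 and 3669 against 3717 and 2407. Psmb7, which carries the trypsin-like site, stood at 2276 and 2626 against 2627 and 1528. For Psmb6 and Psmb7 the highest and the lowest value were both in anti-CD226 libraries. Of the subunits without a protease site, Psmb1 stood at 3561 and 4183 against 4096 and 2375, and Psmb4 at 2490 and 2847 against 2694 and 1751. Psmb2 and Psmb3 dropped least, at -0.28 and -0.34 in anti-CD226 replicate 2 against the isotype mean. The adjusted p of each of the 7 was 0.98 (limma).

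The inducible beta genes were all lowest in anti-CD226 replicate 2, and none passed the test over all 4 libraries. Psmb8 had the highest level of the beta genes per kilobase of coding sequence, with a mean of 8377 normalised reads, against 3397 for Psmb5, whose place it takes. Per kilobase of transcript, Psmb8 was at 4260, below Psmb3 at 5598 and Psmb2 at 5301. It lies in the MHC region at chr17:34197721-34201454 (GRCm38, plus strand) and stood at 7140 and 7848 under isotype and at 7668 and 5086 under anti-CD226. Psmb9, its neighbour at chr17:34181987-34187764 on the minus strand, stood at 1195 and 1335 against 1397 and 993. Psmb10, at chr8:105935735-105938444, stood at 821 and 858 against 926 and 629. For Psmb9 and Psmb10, anti-CD226 replicate 1 was the highest library and replicate 2 the lowest. The log2 fold changes were -0.26, -0.10 and -0.14 with standard errors of 0.22, 0.21 and 0.22 (limma, adjusted p = 0.98 for each).

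The promoters of the beta genes that hold a searched motif are printed to show where in the sequence it lies. Windows from 250 bases before to 50 after a start site, from RefSeq on GRCm38.p6, were matched for 41 of the 50 members (44 windows). Both strands were searched for TGACNNNGC, the core of the antioxidant response element that Nfe2l1 and Nfe2l2 bind, for GAAA followed after any 2 bases by GAAA, the interferon stimulated response element, for TTCNNNGAA, the gamma activated sequence bound by STAT factors, and for CCAAT. Of the beta genes with a window, the 4 below hold one of the first 3 motifs in the 250 bases before the start site. Each runs 5′ to 3′ on the strand of the gene, with the match in capitals.
Psmb5 (chr14:54617996-54618245, minus strand): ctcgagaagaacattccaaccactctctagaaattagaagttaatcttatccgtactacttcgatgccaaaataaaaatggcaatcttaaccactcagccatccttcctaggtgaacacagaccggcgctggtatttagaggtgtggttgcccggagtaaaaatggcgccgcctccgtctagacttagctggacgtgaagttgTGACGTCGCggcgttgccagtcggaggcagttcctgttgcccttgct
Psmb6 (chr11:70525107-70525356, plus strand): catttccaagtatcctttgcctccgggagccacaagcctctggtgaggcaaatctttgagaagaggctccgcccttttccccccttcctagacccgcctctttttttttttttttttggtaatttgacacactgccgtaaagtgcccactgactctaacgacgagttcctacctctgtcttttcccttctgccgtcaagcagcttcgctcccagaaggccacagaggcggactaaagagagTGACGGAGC
Psmb3 (chr11:97703184-97703433, plus strand): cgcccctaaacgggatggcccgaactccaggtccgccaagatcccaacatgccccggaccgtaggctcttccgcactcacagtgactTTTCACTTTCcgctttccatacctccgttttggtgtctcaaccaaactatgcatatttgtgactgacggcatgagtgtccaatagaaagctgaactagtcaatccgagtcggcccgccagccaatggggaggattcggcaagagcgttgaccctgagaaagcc
Psmb8 (chr17:34197945-34198194, plus strand): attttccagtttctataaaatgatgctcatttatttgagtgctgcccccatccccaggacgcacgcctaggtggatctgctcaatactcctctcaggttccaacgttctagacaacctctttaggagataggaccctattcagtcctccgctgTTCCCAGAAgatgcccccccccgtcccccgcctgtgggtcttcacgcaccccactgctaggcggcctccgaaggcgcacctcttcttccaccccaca

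In Psmb5 and Psmb6 the capitals mark the antioxidant response element core, starting 47 and 9 bases before the RefSeq start site. In Psmb3 they mark the interferon element on the other strand. In Psmb8 they mark the gamma activated sequence, starting 97 bases before the RefSeq start site. That start site and the printed Psmb8 stretch lie within the gene as annotated by GENCODE (chr17:34197721-34201454). The printed stretches of Psmb3 and Psmb5 also overlap the GENCODE genes in part (chr11:97703399-97713500 and chr14:54614119-54618022). Over all windows, the antioxidant core was in 6 of 44 member windows (13.6%) and in 12.4% of the 32851 windows of all genes. The interferon element was in 5 of 44 (11.4%) against 3.44%, namely in Psmb3, Psmd4, Psmd9, Psme1 and Psmg4. The gamma activated sequence was in 3 of 44 (6.82%) against 8.30%, and CCAAT in 14 of 44 (31.8%) against 37.4%. A match describes letters, and none of the libraries measures binding. All 4 genes shown were lowest in anti-CD226 replicate 2, as were the other beta genes.

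The balance of inducible to constitutive subunits can be read within a library, free of library scaling. The log2 ratio of Psmb8 to Psmb5 was 1.37 and 1.31 in the isotype libraries and 1.39 and 1.40 in the anti-CD226 libraries, a difference of 0.06. Per kilobase of coding sequence, the level of Psmb8 was between 2.38 and 2.52 times that of Psmb5 in the 4 libraries, and per kilobase of transcript between 1.37 and 1.46 times. The log2 ratio of Psmb9 to Psmb6 was -1.44 and -1.46 against -1.41 and -1.28, a difference of 0.10. For both ratios the anti-CD226 libraries lay above the isotype libraries without overlap. The log2 ratio of Psmb10 to Psmb7 was -1.47 and -1.61 against -1.50 and -1.28, so these groups overlapped. Of 5 ratios computed, these 3 gave two-sided p of 0.333, 0.333 and 0.667 in an exact permutation test, and 0.833 each after adjustment over the 5. With 2 libraries against 2 that test cannot go below 0.333. After removal of each library's trend with transcript length the differences were -0.03 for Psmb8 to Psmb5 and 0.03 for Psmb9 to Psmb6. With the coding length trend removed instead, they were 0.05 and 0.11.

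**Figure D2:**
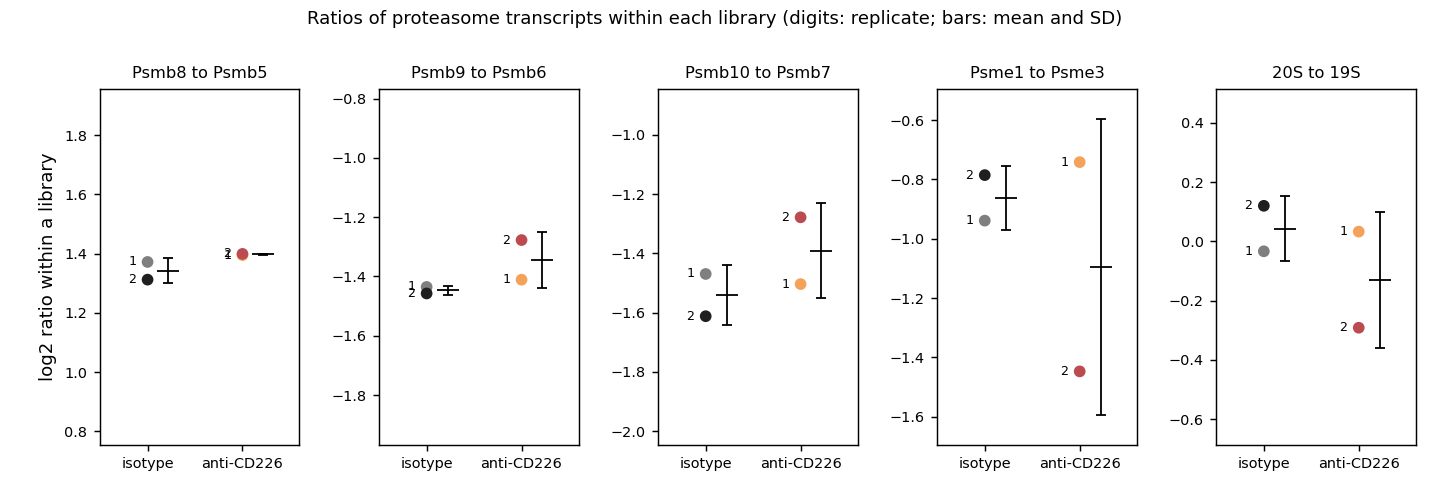
Log2 ratios within each library, 1 panel per ratio, with each panel spanning the same height; points are libraries with the replicate number beside them, and bars are the mean and SD of 2 libraries. Psmb8 to Psmb5 and Psmb9 to Psmb6 lie slightly higher in both anti-CD226 libraries, while Psme1 to Psme3 and 20S to 19S are lowest in anti-CD226 replicate 2.

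The 6 ATPases of the 19S base were all lowest in anti-CD226 replicate 2, at -0.39 to -0.17 against the isotype mean, where the 17 core genes were at -0.70 to -0.23, and 5 of 6 were highest in anti-CD226 replicate 1. Psmc3 stood at 3612 and 3656 under isotype and at 3907 and 2769 under anti-CD226. Psmc4 stood at 3143 and 3155 against 3281 and 2553, and Psmc5 at 2583 and 2779 against 2687 and 2306. The isotype values of Psmc3 and Psmc4 were nearly equal, and the anti-CD226 values lay on either side of them. The class median of the log2 fold changes was -0.10, with a range of -0.14 to -0.02.

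The other 19S subunits split into those that dropped in anti-CD226 replicate 2 and those that did not. Of 11, 8 were lowest there and 3, Psmd1, Psmd2 and Psmd11, were highest there. Psmd2, the large scaffold of the base, stood at 7222 and 6449 under isotype and at 6799 and 8153 under anti-CD226, the highest log2 fold change among the members, 0.13 (standard error 0.17; -0.0021 with the trend over coding length removed). Psmd1, the other large scaffold, stood at 4670 and 4443 against 4424 and 4756. Psmd11, a subunit of the lid, stood at 2577 and 2740 against 2826 and 2919 and was the single member whose groups were separate and higher (log2 fold change 0.11, standard error 0.16). Psmd12, also of the lid, stood at 2673 and 2709 against 2994 and 2561. Among those that dropped, Psmd8 stood at 3968 and 4529 against 4255 and 3261. Psmd13 stood at 2725 and 2765 against 2778 and 2127. Psmd14, the deubiquitinase of the lid, stood at 2789 and 2874 against 2970 and 2195. Over the 11 genes the median log2 fold change was -0.05, with 4 higher and 7 lower (limma, each adjusted p at least 0.98).

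The transcripts of the core and of the regulatory particle were not in the same balance in every library. The mean log2 level of the 17 core genes minus that of the 17 genes of the 19S particle was -0.03 and 0.12 in the isotype libraries, 0.03 in replicate 1 of anti-CD226 and -0.29 in its replicate 2. The difference between groups was -0.17 (exact permutation test, two-sided p = 0.667, adjusted p = 0.833 over the 5 ratios). Leaving out anti-CD226 replicate 1 gave -0.33 and leaving out replicate 2 of that group gave -0.01. Leaving out the isotype libraries in turn gave -0.25 for replicate 1 and -0.10 for replicate 2. With the transcript length trend removed it was -0.11, and with the coding length trend removed -0.08. The share of the signal from core genes was 0.438% and 0.496% under isotype and 0.479% and 0.324% under anti-CD226. For 19S genes it was 0.417% and 0.418% against 0.432% and 0.380%.

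**Figure D3:**
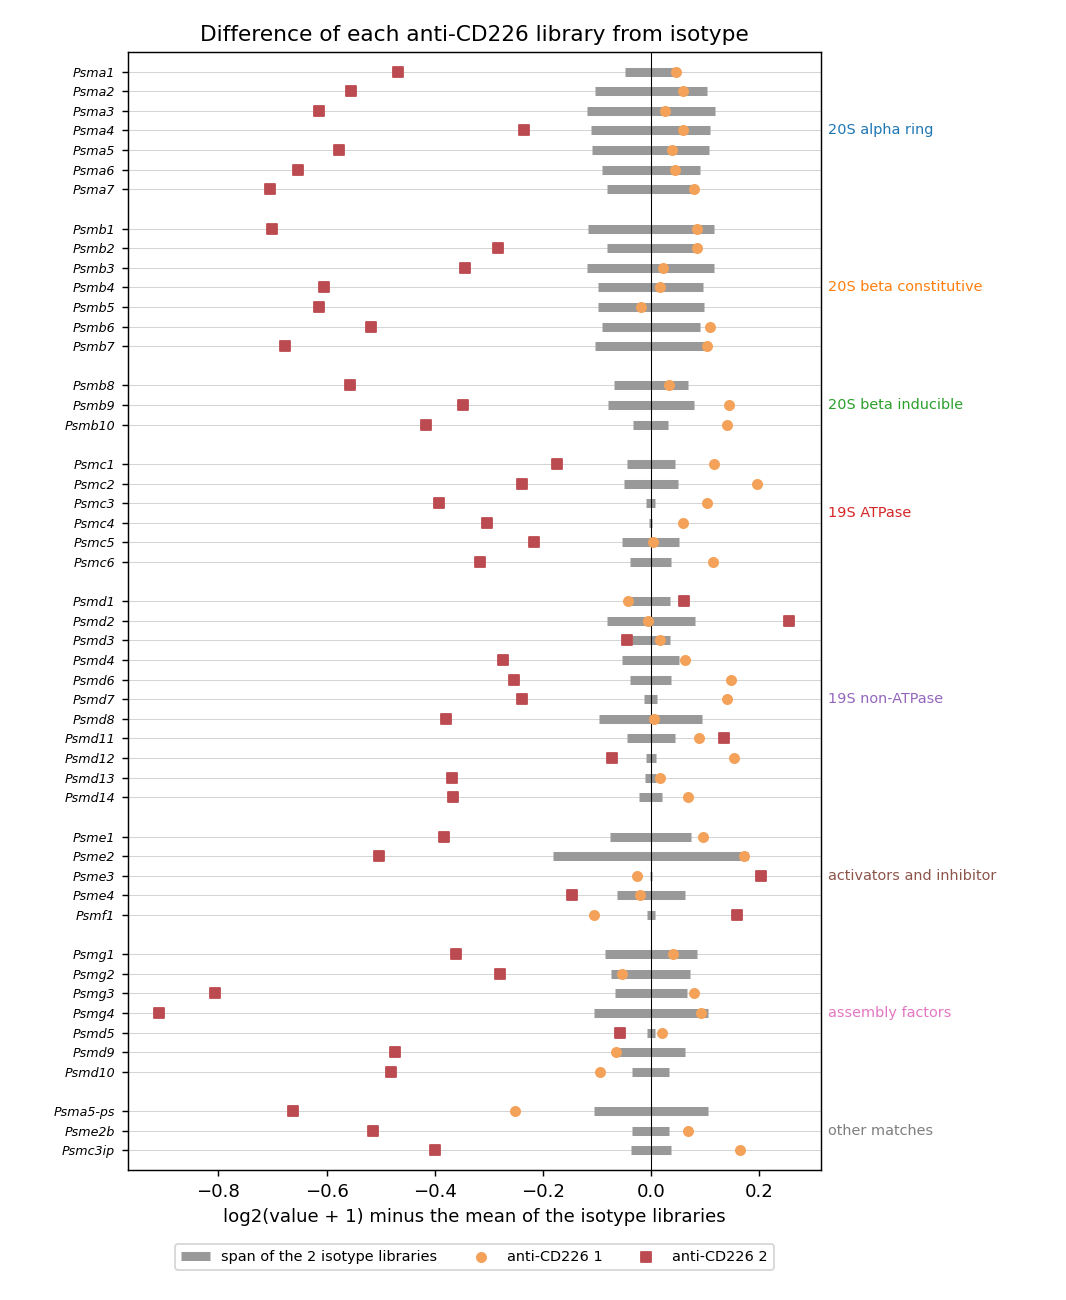
Difference of each anti-CD226 library from the mean of the isotype libraries on the log2(value + 1) scale, 1 row per gene; grey bars span the 2 isotype libraries. Replicate 1 lies near the grey bars, and replicate 2 reaches from -0.91 for Psmg4 to 0.26 for Psmd2.

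The activators differed by family. Psme1 and Psme2 form the activator that interferon induces, and they lie side by side on chromosome 14 (Psme1 at chr14:55578123-55581529, Psme2 at chr14:55587441-55591113). Psme1 stood at 2273 and 2523 under isotype and at 2560 and 1837 under anti-CD226. Psme2 stood at 2083 and 2675 against 2661 and 1665. Both were lowest in anti-CD226 replicate 2. Psme3, the nuclear activator, was highest there, with 4358 and 4348 under isotype and 4280 and 5013 under anti-CD226. Psmf1, which binds the core and inhibits it in vitro, stood at 985 and 975 against 911 and 1094, a log2 fold change of 0.03 that was -0.01 with upper quartile scaling and -0.0041 with quantile normalization. For Psme3 and Psmf1 the lowest and the highest value were both in the anti-CD226 group. Psme4, the large activator linked to histone degradation, stood at 566 and 518 against 534 and 489. The log2 ratio of Psme1 to Psme3 was -0.94 and -0.79 under isotype and -0.74 and -1.45 under anti-CD226 (exact permutation test, two-sided p = 1). The 5 log2 fold changes ran from -0.17 to 0.09, with a median of -0.08.

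With no length trend removed, the assembly factors included the largest drops. Psmg3 and Psmg4, a pair of chaperones for the alpha ring, stood at 533 and 584 against 590 and 319, and at 266 and 308 against 306 and 152. In anti-CD226 replicate 2 they were at -0.81 and -0.91 against the isotype mean, and in replicate 1 they lay within or just above the isotype values. Their coding sequences, of 366 and 369 bases, are the shortest among the members. Over all 4 libraries their log2 fold changes were -0.36 and -0.41. With the transcript length trend removed these were -0.18 and -0.17, where Psma3 was at -0.31. Psmg1 and Psmg2, the other pair of alpha ring chaperones, were at -0.36 and -0.28 in anti-CD226 replicate 2. Of the chaperones of the 19S base, Psmd10, also known as gankyrin, stood at 611 and 641 under isotype and at 587 and 449 under anti-CD226 (log2 fold change -0.29, standard error 0.20). Psmd9 stood at 653.1 and 714 against 652.8 and 492 (log2 fold change -0.27, standard error 0.20). For both the groups were separate and lower, for Psmd9 by less than 1 normalised read. Psmd5, another base chaperone, stood at 1826 and 1806 against 1843 and 1746. All 7 were lower on average (median -0.27; limma, adjusted p from 0.98 to 0.99).

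The 4 other genes match the naming rule but were not counted as subunits, regulators or assembly factors. Psmc3ip, named for an interaction with Psmc3, acts in meiotic recombination and stood at 294 and 310 under isotype and at 339 and 229 under anti-CD226. Psme2b, an intronless copy related to Psme2, stood at 230 and 220 against 236 and 157. Psma5-ps, by its symbol a pseudogene of Psma5, stood at 71.9 and 83.4 against 64.9 and 48.5, the lowest log2 fold change of all members (-0.46, standard error 0.29) and groups that were separate. The processed pseudogene Psmb6-ps2 stood at 1.11 and 2.32 under isotype and at 0 in both libraries of anti-CD226. All 4 values are at or under the value of 3 reads, so no fold is given. Reads of near-identical copies can be split or shared with the parent gene, so the last 3 are uncertain.

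Length went along with the drop in anti-CD226 replicate 2. Over all genes tested with a coding length, the median difference of that library from the isotype mean was -0.30 in the bin of genes with the shortest coding sequences (75 to 843 bases, of 4 bins with near equal numbers of genes) and 0.34 in the bin with the longest. In anti-CD226 replicate 1 the same medians were 0.05 and -0.02. The members are short, with a median coding length of 803 bases against 1362 for all genes tested, and 28 of 48 fell in the shortest bin, where their median in anti-CD226 replicate 2 was -0.51. By transcript length, 30 members fell in the shortest bin, with a median of -0.39 where all genes of that bin were at -0.36. The 10 members of the next bin by transcript length were at -0.34, where all genes were at -0.08. By coding length, the 13 members of the next bin were at -0.30, where all genes were at -0.07. Across the 48 members Spearman's rho between coding length and the difference in anti-CD226 replicate 2 was 0.64, and across 10882 genes 0.56; the points share a library, and genes are not independent replicates. Psmd1 and Psmd2, with coding sequences of 2859 and 2724 bases, were among those that did not drop. Psme3 and Psmf1 did not drop either, with short coding sequences of 762 and 813 bases in long transcripts of 2664 and 3809 bases. Psma2 and Psma3 dropped to -0.55 and -0.61 although their annotated transcripts are 2911 and 2846 bases long; their coding sequences have 702 and 765.

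**Figure D4:**
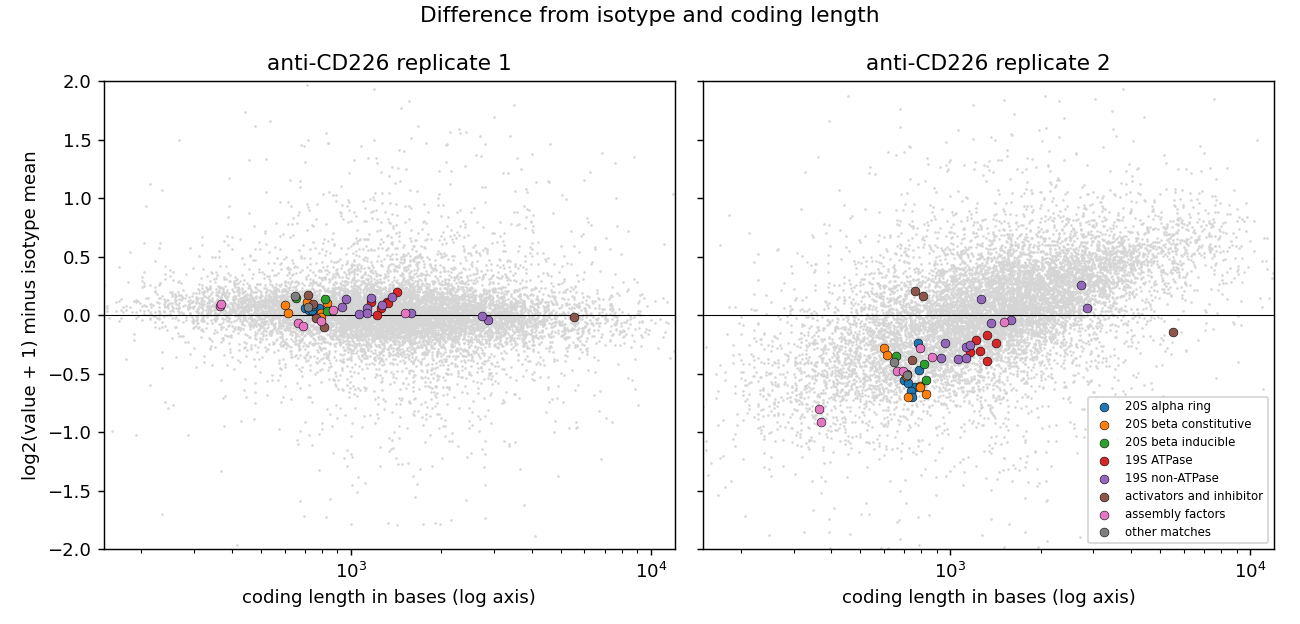
Difference of anti-CD226 replicate 1 (left) and replicate 2 (right) from the isotype mean against coding length (log axis). Grey points are the 10882 genes tested that have a coding length, and coloured points are the proteasome genes by role. Grey points outside the axes are not drawn. In replicate 2 the grey points rise with length, and the core genes lie at -0.70 to -0.23.

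After removal of the transcript length trend within each library, the median of the members was -0.03, with 30 of 48 lower, where 49.9% of all genes were lower. With the trend over coding length removed instead, it was -0.10, with 41 of 48 lower, where 5444 of 10882 genes were lower. No member passed the adjusted p in either fit (limma, 0 of 48), and neither did any other gene. At an unadjusted p below 0.05 there were 0 members in both fits, against 3.14% of all genes in the first and 3.34% in the second. The median of the core genes was -0.14 after the first removal and -0.18 after the second, against 0.02 and -0.08 for the 19S genes.

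Calls depended on which anti-CD226 library was left out. Without anti-CD226 replicate 1, a fit that takes the spread of the remaining anti-CD226 library from the isotype pair, 14 of 49 members were called lower and 0 higher, against 6.79% of all genes called lower. They were 5 alpha ring genes (Psma2, Psma3, Psma5, Psma6 and Psma7), 6 beta genes (Psmb1, Psmb4, Psmb5, Psmb6, Psmb7 and Psmb8), Psme2, Psmg3 and Psmg4, with log2 fold changes from -0.91 to -0.50. No 19S gene was among these 14. Such calls compare 1 library with the isotype libraries, not the treatment. In that fit, with the transcript length trend removed, 3 of 48 were called lower (Psma2, Psma3 and Psmb1) against 1.54% of all genes. With the coding length trend removed, 10 of 48 were called lower, against 2.19%, among them the 19S ATPase Psmc3, and Psme3 was called higher, where 4.44% of all genes were called in either direction. Without anti-CD226 replicate 2, 0 of 49 members were called (limma; 0 also at an unadjusted p below 0.05), where 0.407% of all genes were, and 39 of 49 were higher and 10 lower, with a median of 0.06, where 46.4% of all genes were lower.

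The partners of the proteasome moved in anti-CD226 replicate 2 in both directions. Of 45 partner genes tested, 28 were higher and 17 lower on average, with a median of 0.08, and none passed (limma, 0 of 45, also 0 at an unadjusted p below 0.05). The partners are longer than the members, with a median coding length of 1788 bases against 803. With the transcript length trend removed the partner median was 0.03, with 26 higher and 19 lower. With the coding length trend removed it was 0.05. The 3 parts of the particles outside the naming rule were Pomp, the maturation factor of the core, at 2349 and 2937 against 3006 and 2006, Sem1, the smallest 19S subunit, at 1785 and 2147 against 2163 and 1297, and Adrm1, a ubiquitin receptor, at 2500 and 2654 against 2441 and 2627. Pomp and Sem1 dropped in anti-CD226 replicate 2 as the core genes did, and Adrm1 did not. With the coding length trend removed, the log2 fold changes of Pomp and Sem1 were 0.07 and 0.05. The median of the core genes was -0.18 in that fit. With the transcript length trend removed instead, Pomp was at -0.0037 and Sem1 at -0.12, where the median of the core genes was -0.14. The contrast with the core genes therefore depends on the length used. Of the 4 partners with the smallest p, Rad23b, a shuttle that brings ubiquitinated proteins to the proteasome, stood at 800.1 and 870 under isotype and at 689 and 634 under anti-CD226 (log2 fold change -0.34, standard error 0.17, limma, adjusted p = 0.98). Ubqln2, another shuttle, stood at 168 and 224 against 167 and 123, and Uba6, an enzyme that activates ubiquitin, at 782 and 712 against 869 and 1034. For these 3 the groups were separate, lower for Rad23b and Ubqln2 and higher for Uba6. Among the 45 partners, 4 were separate and lower, against 13.0% of all genes tested. Separate and higher were 8, against 13.8% of all genes tested. Nlrc5, which drives MHC class I genes and Psmb9, stood at 611 and 399 against 521 and 870, with overlap.

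Of the factors that control proteasome genes, none passed the test. Nfe2l1, the factor that raises proteasome genes when the protease is inhibited, stood at 2051 and 1425 under isotype and at 1623 and 2236 under anti-CD226. Nfe2l2 stood at 524 and 597 against 654 and 681, and Irf1, which drives the inducible subunits, at 886 and 922 against 966 and 968. For Nfe2l2 and Irf1 the groups were separate and higher, by log2 fold changes of 0.25 and 0.10 (limma, adjusted p = 0.98 for each). Of the 9 genes of this list 7 were higher and 2 lower, with a median of 0.16. Their median transcript length is 4516 bases. All genes tested in the longest bin by transcript length (4236 bases or more) also had a median log2 fold change of 0.16. With the transcript length trend removed the median of this list was 0.06, and with the coding length trend removed 0.08. Groups were separate and higher for 3 of the 9, against 13.8% of all genes tested. Of the 9 genes that supply peptides to MHC class I, 7 were higher and 2 lower, with a median of 0.06. With the transcript length trend removed that median was 0.04, and with the coding length trend removed 0.03. Tap1, which shares a promoter region with Psmb9, stood at 2020 and 1795 against 1785 and 2049, so its lowest library was the highest for Psmb9.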

How the data were processed

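RNA from cultured, sorted lung ILC2s was measured in 4 libraries, 2 per group. The values that the authors deposited are a normalised signal per gene in each library, in effect a read count divided by a library factor. Processing used mm10, STAR 2.7.8, DESeq2 and Partek 10.0, per the submitters' processing notes. Counting tool, annotation and strand: not given in the sources used here. Of values between 0.5 and 1000 times the value of 1 read, 73.5% to 75.1% were whole multiples of it (tolerance 0.02 of that value). Larger values were not part of that check. No count model was therefore run. A count of 3 reads corresponds to 2.32 to 3.32 normalised reads, for counting error only. The unit was checked singly for 131 gene columns and assumed for the rest.

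Genes with a mean of 10 or more (13010) were tested with limma 3.58.1 in R 4.3.3 on log2(value + 1) with a mean-variance trend, two-sided, with Benjamini-Hochberg adjustment (2 residual and 5.81 prior degrees of freedom). The fit was tested on simulated data with independent noise per gene and no trend with length. It recovered 61% of 2-fold and 91% of 4-fold changes, with 5 false calls. Changes as small as those of the members were not simulated. Lengths and positions are from GENCODE M21 on GRCm38. Named were the protease subunits, activators and inhibitor, the 3 smallest p of each other class, the 5 largest rises and falls, members under the filter and the 4 partners with the smallest p. Psma2, Psma4, Psma5, Psmb2, Psmb3, Psmd1, Psmd5, Psmg1, Psmg2, Pomp, Sem1, Adrm1, Nfe2l1, Nfe2l2, Irf1 and Tap1 were chosen after their values were seen. The members and lists were chosen with earlier results of these data known. Alternatives covered the pseudocount, filter, scaling, variance prior, a replicate block, length trends and each library left out.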

Additional observations from a re-analysis of the deposited data

How the results depend on the processing

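With 2 libraries per group, a single library decided most values. No member passed the adjusted p under any pseudocount, filter, scaling or variance prior tried. The crossed block, the trend over coding length and the fits that join a length trend with a left-out library were chosen after seeing the data. Labels give both groups the numbers 1 and 2 and no pairing, and same-numbered libraries did not deviate together (r = -0.24 over 13010 genes). With the replicate number as a block 20 of all genes passed and 0 members. With the pairing crossed 61 passed and 0 members. With the block and the transcript length trend removed 4 passed and 0 members.

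With the transcript length trend removed, with or without the block, the activator median was 0.0033, the ratio difference was -0.034 for Psmb8 to Psmb5 and 0.031 for Psmb9 to Psmb6, and log2 fold changes turned to 0.018 for Psmb9, 0.0050 for Psme1, 0.0033 for Psme2, 0.018 for Psmc5, 0.010 for Psmc3ip and -0.048 for Psmf1. With the coding length trend removed Psmb9 was at 0.0018 and Psmd2 at -0.0021. Psmf1 was at -0.013 with upper quartile scaling and at -0.0041 with quantile normalization. The cause was not tested.

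Over all fits that left out a library, genes past the adjusted p ranged from 2 to 1633 and members from 0 to 14. The family median ranged from -0.37 without anti-CD226 replicate 1 to 0.06 without anti-CD226 replicate 2. Class medians ranged from -0.60 to 0.085 for the constitutive beta genes, -0.27 to 0.11 for the ATPases, -0.24 to 0.063 for the other 19S subunits, -0.19 to 0.015 for the activators and -0.47 to 0.021 for the assembly factors. For the alpha ring the range was -0.58 to 0.047 and for the inducible beta genes -0.42 to 0.14. For the other genes that match by symbol it was -0.51 to 0.070. Ratio differences ranged from -0.16 to 0.091 for Psmb8 to Psmb5 and from -0.0046 to 0.20 for Psmb9 to Psmb6. For Psmb10 to Psmb7 the range was 0.037 to 0.27 and for Psme1 to Psme3 -0.59 to 0.12. Log2 fold changes ranged from -0.65 to 0.026 for Psma3, -0.65 to 0.044 for Psma6, -0.70 to 0.081 for Psma7, -0.70 to 0.086 for Psmb1, -0.60 to 0.017 for Psmb4, -0.52 to 0.11 for Psmb6, -0.68 to 0.10 for Psmb7, -0.56 to 0.035 for Psmb8, -0.35 to 0.15 for Psmb9 and -0.42 to 0.14 for Psmb10. They ranged from -0.39 to 0.10 for Psmc3, -0.30 to 0.059 for Psmc4, -0.22 to 0.065 for Psmc5, -0.0126 to 0.26 for Psmd2, -0.38 to 0.0055 for Psmd8, -0.084 to 0.15 for Psmd12, -0.37 to 0.017 for Psmd13 and -0.37 to 0.069 for Psmd14. They ranged from -0.38 to 0.10 for Psme1, -0.50 to 0.17 for Psme2, -0.028 to 0.39 for Psme3, -0.10 to 0.33 for Psmf1, -0.81 to 0.081 for Psmg3, -0.91 to 0.093 for Psmg4, -0.51 to 0.068 for Psme2b and -0.40 to 0.17 for Psmc3ip.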
